A study of Mus musculus with 48 samples.

Results

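The 10 immediate early genes Fos, Jun, Junb, Egr1, Atf3, Ier2, Btg2, Dusp1, Myc and Gadd45g were followed through the mouse liver time course, and their rhythms were set against single pools that stood above their neighbours. They were chosen by the gene symbol of the array's annotation and are 12 probe sets of 45101 on the array and 10 genes of 18194 with a probe set of their own, since Jun and Btg2 each have 2 probe sets. The array was the Affymetrix Mouse Genome 430 2.0, on which a probe set is a group of short oligonucleotides that report 1 transcript. Every sample was RNA from the livers of male C57BL/6J mice of 6 weeks, kept in 12 h of light and 12 h of darkness and then in constant darkness. The 48 pools were taken each hour from CT18 to CT65, where CT is circadian time and CT0 is subjective dawn, with 3 to 5 mice in each pool. There was 1 pool and 1 array per hour, no treated group and no second pool at any hour, so that the spread between mice of 1 hour is not known. CT42 to CT65 make up the second cycle and CT18 to CT41 the first, and no feature of the collection other than the hour separates the pools in the labels.

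Immediate early genes are transcribed within minutes of a signal because the factors that switch them on, among them SRF with its ELK partners and CREB, are already in the cell and need only be phosphorylated. Their mRNAs are short-lived and their products, mostly transcription factors and feedback inhibitors of the MAP kinases, close the response again. In liver they are known as the first genes to answer partial hepatectomy, feeding, hormones and the handling or cold storage of tissue. Liver pools hold several cell types, and for each result here more cells of a type and more RNA per cell cannot be told apart.

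The promoters of 7 of the 10 genes (Fos, Jun, Junb, Atf3, Btg2, Dusp1 and Gadd45g) were found in a RefSeq table of the GRCm38.p6 build, which spans 250 bases before to 50 after each annotated start. Those of Fos, Junb, Dusp1 and Gadd45g are shown because Junb and Dusp1 were rhythmic and Fos and Gadd45g were the members of the 7 with more than 1 spike. Each is printed 5′ to 3′ in the direction of transcription, from 250 bases before the start and through the first 20 bases of the transcript. Capitals mark matches on either strand to the letters TGACGTCA (the full CRE, the site of CREB), TGACG (its core, which also lies inside each full CRE), CACGTG (an E-box), TATAAA (bound by TBP, near the start), CCAAT (bound by NF-Y) and, with no match in these 4, TGANTCA (an AP-1 site), GCGNGGGCG (an EGR site) and the CArG box of SRF. Fos lies at chr12:85473640-85473909 on the plus strand, Junb at chr8:84978729-84978998 on the minus strand, Dusp1 at chr17:26508453-26508722 on the minus strand and Gadd45g at chr13:51846425-51846694 on the plus strand.
Fos: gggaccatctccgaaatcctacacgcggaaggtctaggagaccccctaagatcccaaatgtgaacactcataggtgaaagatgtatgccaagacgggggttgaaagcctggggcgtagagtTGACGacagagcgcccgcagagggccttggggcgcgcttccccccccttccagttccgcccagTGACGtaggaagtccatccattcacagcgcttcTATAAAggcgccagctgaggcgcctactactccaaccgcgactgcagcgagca
Junb: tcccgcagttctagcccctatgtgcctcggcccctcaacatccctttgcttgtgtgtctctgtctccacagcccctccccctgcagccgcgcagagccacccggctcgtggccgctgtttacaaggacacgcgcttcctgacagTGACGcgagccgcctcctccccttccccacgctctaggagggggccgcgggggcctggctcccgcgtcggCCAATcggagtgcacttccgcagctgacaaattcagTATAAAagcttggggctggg
Dusp1: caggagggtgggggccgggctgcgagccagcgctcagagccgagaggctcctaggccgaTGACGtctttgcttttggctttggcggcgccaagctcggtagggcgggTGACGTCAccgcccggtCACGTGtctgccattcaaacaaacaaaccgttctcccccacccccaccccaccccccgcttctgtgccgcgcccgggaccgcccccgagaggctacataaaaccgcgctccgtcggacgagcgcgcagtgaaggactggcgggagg
Gadd45g: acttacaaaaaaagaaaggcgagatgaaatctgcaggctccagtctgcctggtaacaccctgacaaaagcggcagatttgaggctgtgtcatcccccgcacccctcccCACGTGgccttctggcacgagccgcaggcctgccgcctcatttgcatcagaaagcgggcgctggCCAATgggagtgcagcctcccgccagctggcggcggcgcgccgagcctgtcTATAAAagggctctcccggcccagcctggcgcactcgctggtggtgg

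The CRE core TGACG was present in 5 of the 7 windows of 300 bases (Fos, Junb, Atf3, Btg2 and Dusp1), and in 20.9% of all 32544 promoters of the table. Fos held it 129 and 66 bases before the start, and Dusp1 191 bases before it and again, within the full CRE, at 143 bases. The full CRE was found in Btg2 and Dusp1 and in 1.80% of all promoters. The E-box, the sequence to which the clock factors CLOCK and BMAL1 and also MYC with MAX bind, was found in Dusp1 and Gadd45g and in 7.17% of all promoters. The letters TATAAA were found in Fos, Junb and Gadd45g (13.6% of all). They lay 33 bases before the start in Fos and 27 in Gadd45g. In Junb they began at the annotated start itself and so lay within the transcript, unlike the other matches. CCAAT was found in 5 (37.4% of all) and the letters of the EGR site in Btg2 alone (5.60% of all). No window matched the AP-1 site (7.79% of all) or the CArG box (1.64% of all), which says only that these letters are not in these windows.

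The arrays were alike in brightness, with medians from 95.2 to 110.9, and 49.5% of probe sets had a mean intensity under 100, where signal is near background. The upper quartile of intensity was 797 to 945 in CT60 to CT65 and reached 1099 over all pools, and the lowest median correlation of an array with the others was 0.984, at CT61. Results that rest on CT60 to CT65 are given with and without these pools.

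A rhythm was called by the study's own pair of tests, Fisher's G-test and a cosine fit judged against scrambled pools, where both gave a q-value under 0.05. The cosine threshold was lenient. Ier2 and the brighter Btg2 probe set passed it, with q-values of 0.0249 and 0.0458, although their p-values from the scrambling were above 0.05. Their G-test q-values were 0.308 and 0.554, so that the G-test alone withheld these calls. Both tests called Egr1, Junb and Dusp1 with a period in the 24 h class, which is 3 of the 12 probe sets, against 9.98% of all probe sets. None was called in the 12 h class, against 0.772%, or in the 8 h class, against 0.268%. A harmonic model in limma, fitted to each probe set with its trend and with periods of 24, 12 and 8 h, called a 24 h component in 6 of the 12 (Junb, Egr1, Dusp1, Jun by its brighter probe set, Btg2 by its brighter probe set, and Ier2), and as this model called 47.4% of all probe sets, the members' share was near the background. A 12 h component was called in Junb and Dusp1, which is 2 of the 12, against 4.89% of all probe sets. The 8 h component was called in 0 of the 12, against 1.35% (limma, 1 of the 12, Gadd45g, at an unadjusted p under 0.05), and Fisher's G-test and the cosine fit together also called 0. The 24 h calls of Egr1, Junb and Dusp1 in limma held when any 1 pool was left out.

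Egr1 (probe set 1417065_at), a zinc finger transcription factor induced by growth signals through SRF, moved most of the 10. Its intensity had a minimum of 84.0 at CT61, a median of 1683 and a maximum of 9416 at CT26. It was high around subjective dawn and in the subjective morning and low in the early subjective night of both cycles. From CT60 to CT65 its lowest, median and highest values were 84.0, 253 and 375, and in the same hours of the first cycle, CT36 to CT41, they were 265, 331 and 1868. From CT48 to CT53 they were 772, 1692 and 2988, and from CT24 to CT29 they were 2476, 4999 and 9416. In each cycle all 6 morning pools thus lay above all 6 pools of the early night. The 24 h amplitude in limma was 1.44 ± 0.19 (SE) on the log2 scale, a peak 7.41 times its trough, with a peak at CT2.91 ± 0.51 h (SE; adjusted p = 4.05e-07), and the q-values were 4.08e-05 in the G-test and 0.00126 in the cosine fit. The cosine q-value was at a floor, since 1000 scramblings could give no smaller p-value.

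Junb (probe set 1415899_at), a JUN family member that competes with JUN for partners in AP-1, was dim in most pools and highest in the middle of the subjective day. Its minimum was 48.3 at CT48, its median 109.6 and its maximum 399.9 at CT31. From CT54 to CT59 the lowest, median and highest values were 144, 208 and 271, and from CT30 to CT35 they were 119, 219 and 399.9. From CT60 to CT65 they were 49.9, 54.8 and 92.1, and from CT36 to CT41 they were 56.0, 67.8 and 135. The midday and night blocks did not overlap in the second cycle and overlapped in the first. The 24 h amplitude was 0.78 ± 0.088 (SE; log2, limma, adjusted p = 1.17e-08) with a peak at CT6.46 ± 0.46 h, and the 12 h amplitude was 0.47 ± 0.089 (adjusted p = 0.00166). The peak came 3.55 ± 0.69 h (SE) after that of Egr1.

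Dusp1 (probe set 1448830_at), a phosphatase that switches off the kinases p38 and JNK and is itself a glucocorticoid target, peaked in the subjective night. Its minimum was 2978 at CT53, its median 7038 and its maximum 19686 at CT37. Over the early subjective night its lowest, median and highest values were 5642, 7182 and 14642 from CT60 to CT65, and 8898, 10868 and 19686 from CT36 to CT41. Over the subjective afternoon they were 3195, 5733 and 7043 from CT54 to CT59, and 3593, 4428 and 12175 from CT30 to CT35. The afternoon block had the lowest median of the 4 blocks in both cycles, while the high of CT37 was not matched 24 h later. The 24 h amplitude was 0.52 ± 0.082 (SE; log2, limma, adjusted p = 1.62e-05) with a peak at CT16.5 ± 0.65 h, 10 ± 0.80 h after Junb, and the 12 h amplitude was 0.37 ± 0.082 (adjusted p = 0.0103). When fitted by cycle, the 24 h amplitude was 0.25 in the second cycle and 0.77 in the first, a difference that did not pass the limma interaction test over all probe sets (unadjusted p = 0.0258, adjusted p = 0.256).

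The calls of both tests rest in part on the last pools. When these 6 pools (CT60 to CT65) were dropped, Junb and Dusp1 were the 2 of the 12 that passed both, and the G-test q-value of Egr1 was 0.0861, although 42 pools hold no Fourier frequency at 24 h. The limma amplitude of Egr1 without these pools was 1.4 (adjusted p = 1.83e-05). With linear intensities in place of log2 values both tests called Junb and Egr1, and the G-test q-value of Dusp1 was 0.109.

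**Figure D1:**
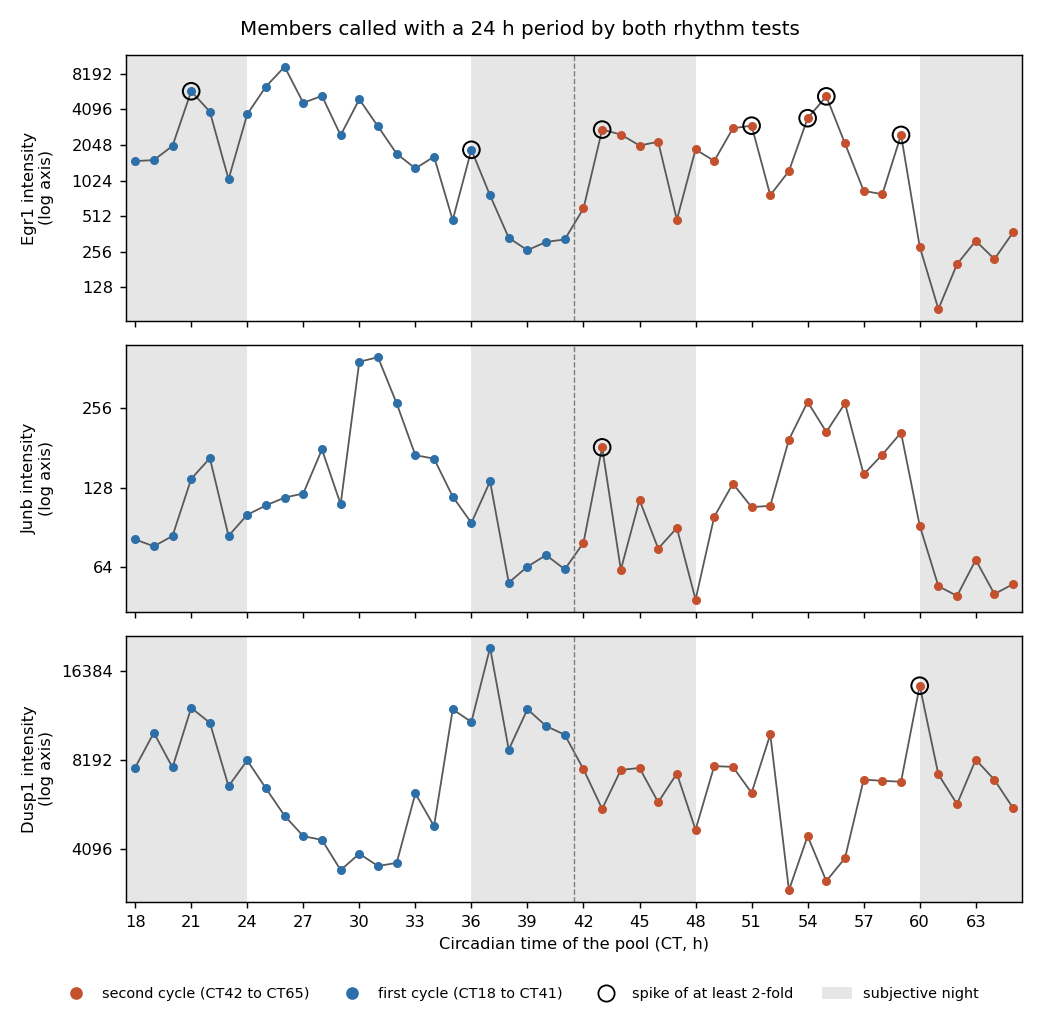
Microarray intensity (log axis) of Egr1, Junb and Dusp1 in each of the 48 hourly pools against circadian time, with pools of the second cycle in orange, pools of the first in blue, spikes ringed and subjective night in grey. Egr1 and Junb have their lowest block of 6 h just after subjective dusk in both cycles, with medians of 253 and 54.8 in the second, while Dusp1 has its minimum in the subjective day, at 2978 at CT53.

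Jun, the partner of FOS in AP-1, Btg2, an antiproliferative protein that promotes mRNA decay, and Ier2, a nuclear protein induced by growth factors, had smaller 24 h components. The brighter Jun probe set (1417409_at) ranged between 501 at CT49 and 1802 at CT38, with a median of 883. From CT60 to CT65 its lowest, median and highest values were 507, 857 and 1499, and from CT36 to CT41 they were 860.0, 1673 and 1802, so that the high of the first evening was not as clear in the second. Its 24 h amplitude was 0.28 ± 0.090 (SE; log2, limma, adjusted p = 0.0304) with a peak at CT12.7 ± 1.1 h. The dimmer Jun probe set (1448694_at) peaked at CT13.0 ± 1.9 h in the fit but had an amplitude of 0.12 ± 0.064 that was not called (adjusted p = 0.246).

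The brighter Btg2 probe set (1416250_at) had a minimum of 644 at CT53, a median of 1223 and a maximum of 2429 at CT43, with a 24 h amplitude of 0.23 ± 0.073 (SE; limma, adjusted p = 0.0302) and a peak at CT16.7 ± 1.3 h. The dimmer one (1448272_at) lay between 59.2 and 102 and within 10% of its median in 43 of 48 pools, so that it carried little signal. Ier2 (1416442_at) lay between 1420.4 at CT63 and 5130.4 at CT22 with a median of 3002. It was lowest in the last pools, at 1420.4, 1902 and 2435 (lowest, median and highest) from CT60 to CT65, against 2408, 2988 and 3876 from CT36 to CT41. Its 24 h amplitude was 0.14 ± 0.049 (SE; limma, adjusted p = 0.0451). These 3 calls are weak. Leaving out 1 pool ended the call of Ier2 for 22 of the 48 pools, that of Jun for 5 (CT37, CT38, CT40, CT46 and CT49) and that of Btg2 for 2 (CT29 and CT53). Without CT60 to CT65 the adjusted p was 0.471 for Ier2, 0.10 for Btg2 and 0.0104 for Jun.

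Between the cycles, 4 of the 12 probe sets were lower in the second than in the first, against 11% of all probe sets, and 0 were higher, against 42.0% (limma, adjusted p under 0.05; 0 were higher also at an unadjusted p under 0.05). With robust regression 2 were higher, Atf3 by 0.05 (log2, adjusted p = 0.00729) and the dimmer Btg2 probe set by 0.01 (adjusted p = 0.0125), both near background. The shares over all probe sets include the 49.5% with a mean intensity under 100. The median difference was 0.03 over all probe sets and -0.02 over those with a mean of at least 100 (log2). Counted by gene, 4 of the 10 members were lower, against 15.8% of all genes. Ier2 averaged 2727 ± 639 in the second cycle and 3375 ± 592 in the first (SD over 24 pools each), a difference of -0.33 ± 0.085 on the log2 scale (SE; limma, adjusted p = 0.0012). Egr1 averaged 1594 ± 1314 in the second cycle and 2701 ± 2374 in the first, a difference of -0.76 ± 0.30 (adjusted p = 0.0298). The brighter Jun probe set differed by -0.38 ± 0.12 (adjusted p = 0.00838) and the brighter Btg2 probe set by -0.29 ± 0.11 (adjusted p = 0.0223). The ranges overlapped for all 4. The last 6 arrays had the upper quartiles of 797 to 945 given above, and their part in these differences was not tested. Of the 4, Ier2 alone was still called after quantile normalization (-0.24, adjusted p = 0.0180) and without CT36 to CT41 and CT60 to CT65 (-0.20, adjusted p = 0.0349), while Egr1 was at -0.72 (adjusted p = 0.0853) and -0.64 (adjusted p = 0.0947), Jun at -0.28 (adjusted p = 0.105) and -0.25 (adjusted p = 0.107), and Btg2 at -0.18 (adjusted p = 0.210) and -0.23 (adjusted p = 0.144). For Egr1 the call was also lost when CT47 or CT61 alone was left out, with a highest adjusted p of 0.0521. The 24 h pair itself differed between the cycles in 0 of the 12, against 1.86% of all probe sets (limma; Dusp1 and Fos at an unadjusted p under 0.05).

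Fos and Atf3 gave a flat trace near background in nearly all pools. Fos (1423100_at), the other subunit of AP-1, was within 10% of its median of 94.7 in 37 of 48 pools. It was at 315, 165 and 338 at CT21, CT22 and CT23, the late subjective night of the first cycle, and at 94.2, 95.8 and 99.8 in the same 3 hours of the second. The next highest pool was CT52, at 172, and the lowest was CT30, at 47.9. The 2 highest pools thus stood apart from the other 46. The 24 h amplitude of Fos was 0.20 ± 0.095 (SE; log2, limma, adjusted p = 0.167), and with robust regression, which gives extreme pools less weight, it was 0.04 (adjusted p = 0.0185). Atf3 (1449363_at), a stress-induced bZIP repressor, lay between 71.2 at CT54 and 129 at CT48 with a median of 82.8, and its 24 h amplitude was 0.09 ± 0.031 (limma, adjusted p = 0.0532).

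Myc and Gadd45g were well above background and moved widely from hour to hour with no rhythm called. Gadd45g (1453851_a_at), which binds and activates a kinase upstream of p38 and JNK, had a minimum of 585 at CT48, a median of 1483 and a maximum of 6316 at CT60. It was at 3640.0 and 6316 at CT59 and CT60, against 1382 and 1652 at CT57 and CT58 and 1183 and 866 at CT61 and CT62. It was also at 5309 at CT52, between 2328 at CT51 and 708 at CT53, and at 5042 at CT26, between 1004 at CT25 and 1748 at CT27. High pools thus stood 1 or a pair at a time between low ones. Its 24 h amplitude was 0.15 ± 0.17 (SE; log2, limma, adjusted p = 0.707), and its 8 h amplitude of 0.49 ± 0.16 did not pass the adjustment (adjusted p = 0.23).

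Myc (1424942_a_at), a growth-promoting transcription factor that binds DNA with MAX, had a minimum of 144 at CT62, a median of 485 and a maximum of 1475 at CT43. It was at 1434 and 1475 at CT42 and CT43, at 483 at CT44 and at 1389 at CT45. It was at 1122 and 1143 at CT59 and CT60, against 332 at CT58 and 334 at CT61, and at 563 and 314 at CT35 and CT36, the same hours of the first cycle. Its 24 h amplitude was 0.25 ± 0.14 (SE; log2, limma, adjusted p = 0.313) and its 12 h amplitude 0.44 ± 0.14 (adjusted p = 0.185).

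**Figure D2:**
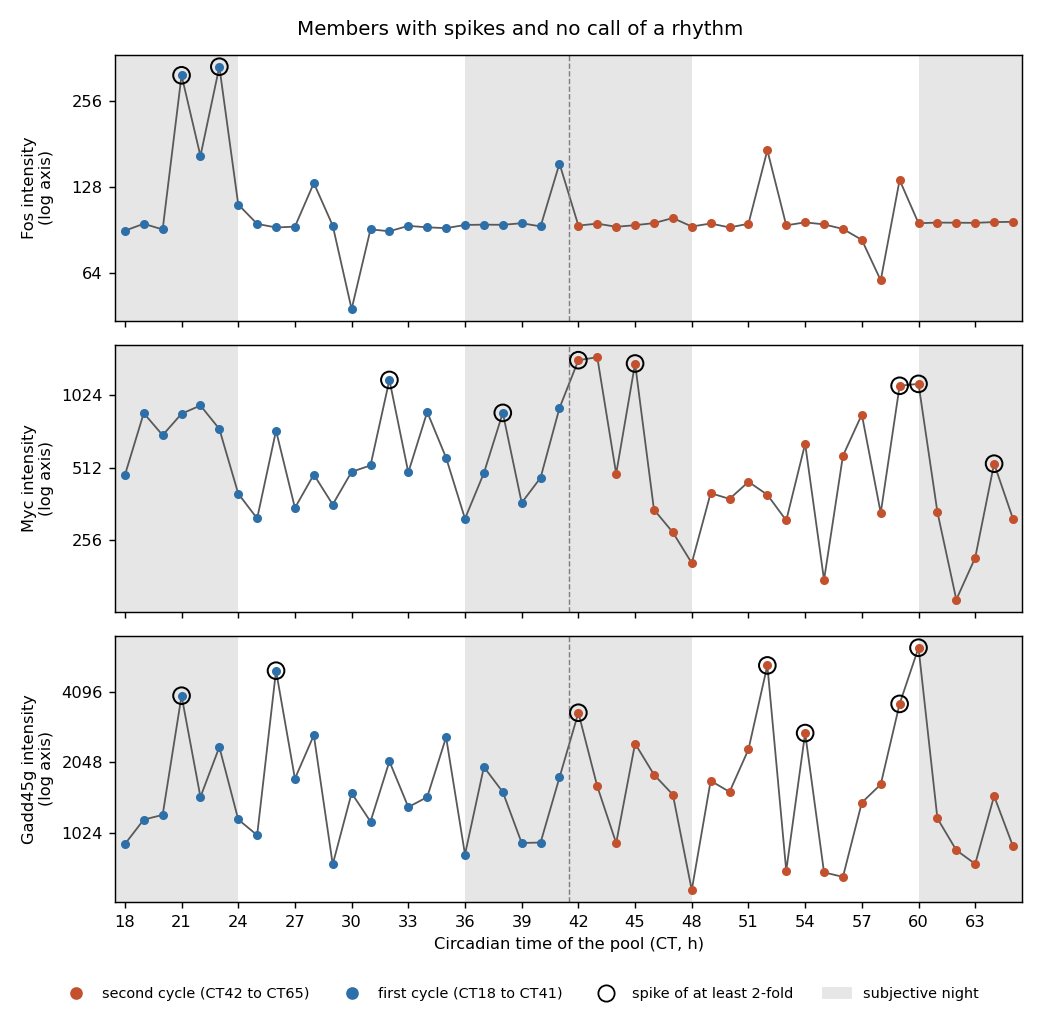
Microarray intensity (log axis) of Fos, Myc and Gadd45g in each of the 48 hourly pools against circadian time, with pools of the second cycle in orange, pools of the first in blue, spikes ringed and subjective night in grey. Fos stays within 10% of its median of 94.7 in 37 pools and is high at CT21 and CT23 in the first cycle only, while Myc and Gadd45g swing between neighbouring pools in both cycles.

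The share of variance set rhythm and single pools on 1 scale. The 24 h pair took 51.3% of the variance of log2 values in Junb, 39.9% in Egr1 and 37.4% in Dusp1, against a median of 11% over all probe sets. In Fos, Myc and Gadd45g it took 8.99%, 4.63% and 1.65%. The median over the 12 probe sets was 10.9%, close to that of all probe sets. What trend and harmonics left over was 26.6% of the variance in Junb, 28.3% in Egr1 and 38.8% in Dusp1, and 79.4% in Fos, 64.5% in Myc and 78.0% in Gadd45g, against a median of 58.0% over all probe sets. In absolute terms the residual SD of Egr1 was still the widest of the 12, at 0.91 on the log2 scale, with 0.79 in Gadd45g and 0.70 in Myc, against a median of 0.12 over all probe sets and 0.20 over those with a mean of at least 100. The pool with the largest residual held 22.1% of the residual sum of squares in Fos (CT23), 10.2% in Egr1 (CT59), 8.99% in Gadd45g (CT60) and 8.1% in Myc (CT55), against a median of 19.7% over all probe sets and 16.5% over those with a mean of at least 100. Fos was thus near the background in this measure, and the other 3 were below it.

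**Figure D3:**
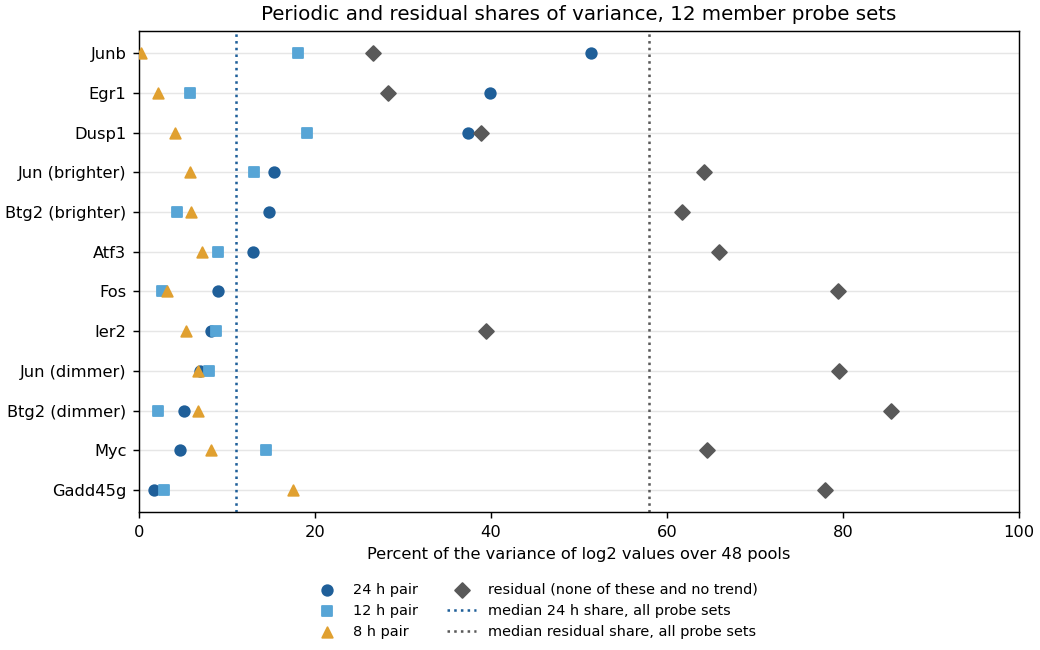
Percent of the variance of log2 values over 48 pools, for each of the 12 member probe sets, in the 24 h (circles), 12 h (squares) and 8 h (triangles) cosine pairs and in the residual (diamonds), each pair counted as what the model loses without it, with dotted lines at the medians of all probe sets. Junb, Egr1 and Dusp1 have 24 h shares of 51.3%, 39.9% and 37.4%, and the other 9 probe sets lie between 1.65% and 15.3%, on both sides of the median of 11%.

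Values of the second cycle were compared with those of the same hours in the first, over 24 pairs of hours. Junb (Pearson r = 0.69, Spearman rho = 0.66, permutation p = 1.30e-04, adjusted p = 0.00156) and Egr1 (r = 0.66, rho = 0.63, permutation p = 4.30e-04, adjusted p = 0.00258) recurred, 2 of 12 relations tested. Without the 2 hours farthest from the median r was 0.60 for Junb and 0.59 for Egr1. Dusp1 had r = 0.50 and rho = 0.39 (permutation p = 0.0129, adjusted p = 0.0515). Fos (r = 0.13, rho = 0.39), Myc (r = 0.02, rho = -0.05) and Gadd45g (r = 0.20, rho = 0.18) gave adjusted p of 0.780, 0.932 and 0.711 in the same permutation test. The hours of a cycle are not independent, and leaving out CT60 to CT65 with their paired hours left 0 of the 12 called. The share of all probe sets that recur by this test is not given here, so that 2 of 12 has no background beside it.

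A spike was defined as a pool at least 2-fold above the median of the pools 1 and 2 h before and after it, and a dip as one at least 2-fold below. With 1 pool per hour a spike can be described but not tested. Spikes were found in 7 of the 12 probe sets, against 8.54% of all probe sets and 13% of those with a mean intensity of at least 100. Egr1, Myc and Gadd45g had 7 each, Fos 2 (CT21 and CT23), and Junb (CT43), the brighter Jun probe set (CT47) and Dusp1 (CT60) 1 each. Ier2, Btg2 and Atf3 had none, with largest differences of 1.49-fold at CT22, 1.97-fold at CT43 and 1.56-fold at CT48. Dips were found in 4 of the 12 (Egr1, Gadd45g, Myc and Junb), against 7.24% of all probe sets.

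Of the 26 spikes, 18 fell in the second cycle and 8 in the first, and 0 recurred 24 h earlier or later, where 3.11% of the 6679 spikes of all probe sets did. The largest was that of Egr1 at CT59, at 2496 against a neighbour median of 472, or 5.28-fold, while Egr1 at CT35, the same hour of the first cycle, was at 476 and below its neighbours. Around CT59 Egr1 was at 840 and 787 at CT57 and CT58, and at 284 and 84.0 at CT60 and CT61. The fold at CT59 thus rests in part on the low values of CT60 and CT61. Of the 20 dips 4 recurred, as a pair in Egr1 at CT47 and CT23 and a pair in Gadd45g at CT53 and CT29, against 2.80% over all probe sets. Egr1 was at 479 at CT47, between 2183 and 1880 in the adjacent pools, and at 1053 at CT23, between 3921 and 3731. The hour before subjective dawn was therefore low between high pools in both cycles, 4.08-fold below the neighbour median at CT47 and 4.54-fold below it at CT23. Without CT60 to CT65, an alternative chosen after seeing the data, 6 probe sets had 22 spikes, Dusp1 being the one lost.

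**Figure D4:**
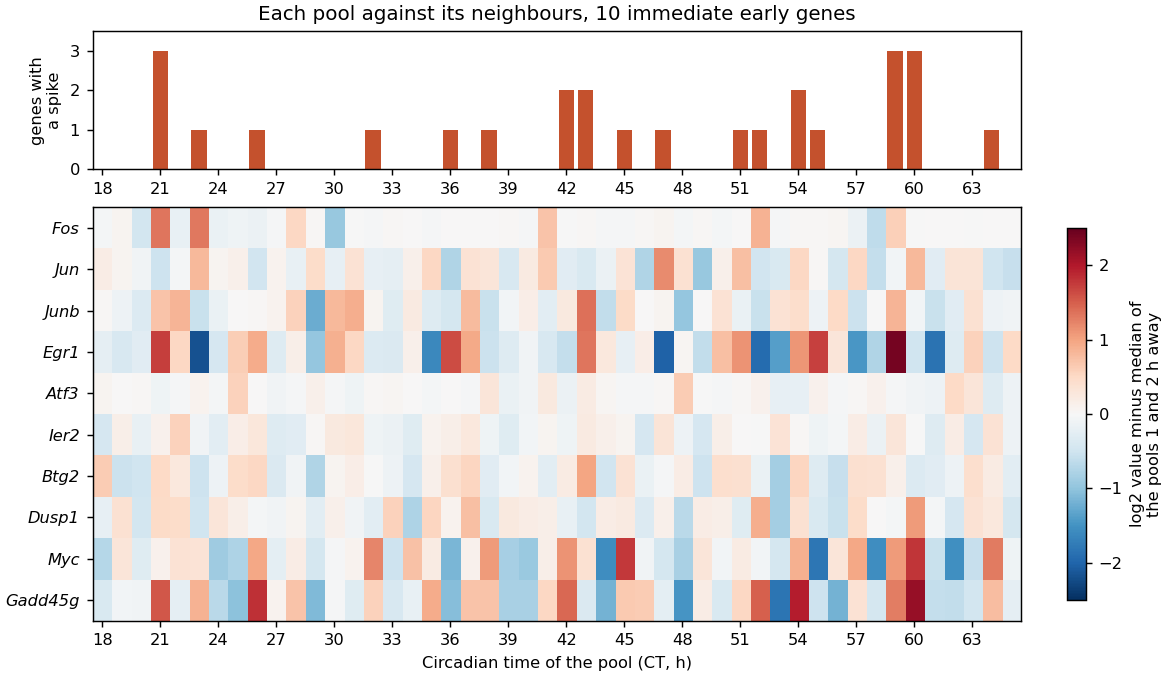
Top, the number of the 10 member genes with a spike in each pool; bottom, the log2 value of each gene (brightest probe set) minus the median of the pools 1 and 2 h away, in colour, by circadian time. The bars reach 3 genes at CT21, CT59 and CT60 and 0 in 31 of the 48 pools, and the strongest single difference is that of Egr1 at CT59.

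The 26 spikes were gathered in 17 pools, with 3 member genes in each of CT21, CT59 and CT60, 2 in each of CT42, CT43 and CT54, 1 in 11 pools and 0 in 31. At CT21 Fos, Egr1 and Gadd45g had a spike, 3 of the 10 genes, against 0.115% of all genes. At CT59 Egr1, Myc and Gadd45g had one, against 0.264%, and at CT60 Dusp1, Myc and Gadd45g, against 0.610%. Over all 48 pools the median share of genes with a spike was 0.162%. CT60 had the highest share but 1, after CT27 with 0.835% and no member, so that many genes besides the members stood above their neighbours at CT60.

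In each of the 3 pools other genes stood above their neighbours as well, and few of the 10 highest were shared between pools (Igfbp1 and Trib3 by CT21 and CT59, Mt2 by CT21 and CT60). At CT21 Igfbp1, an insulin-repressed binding protein of insulin-like growth factors, was at 61519 against a neighbour median of 20645 (2.98-fold), and Bcl6, a transcriptional repressor, at 10777 against 3353 (3.21-fold). The metallothionein Mt2 was 2.58-fold and the kinase inhibitor Trib3 2.36-fold above their neighbours in that pool, and Orly, Id4, Nipal1, Ppp1r10, Slc25a25 and Gm3715 were between 2.23-fold and 4.08-fold above theirs. The summed intensity of 10 glucocorticoid targets was 0.69 above its neighbours on the log2 scale at CT21, 0.23 at CT59 and 0.34 at CT60, with 9, 8 and 10 of the 10 genes above theirs. Those with a spike were Mt1 and Mt2 at CT21, Zbtb16 and Lcn2 at CT59 and Fkbp5, Zbtb16, Mt1 and Mt2 at CT60, and Lcn2 also belongs to the acute phase list.

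At CT59 the highest were acute phase genes, which the liver secretes in inflammation. Saa2 was at 135759 against 4210.5 (32.2-fold), Saa1 at 363998 against 15812 (23.0-fold), Lcn2 at 2767 against 144 (19.2-fold) and Orm2 at 10391 against 2432 (4.27-fold), although the probe sets of Saa1 and Saa2 can bind each other's transcript. The summed intensity of the 8 acute phase genes was 0.77 above its neighbours at CT59 on the log2 scale, and differed from them by -0.02 at CT21 and -0.06 at CT60. Igfbp1 (4.93-fold), Trib3 (3.07-fold), Cyp26a1 (4.22-fold) and Depp1 (3.61-fold) were also above their neighbours at CT59. Igha was at 353 and Rbm20 at 305, with neighbour medians of 81.1 and 99.9, near background.

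At CT60 the highest were Cish, a feedback inhibitor of STAT5 signalling, at 2258 against 469 (4.81-fold), Mt2 at 18159 against 4468 (4.06-fold), the polo-like kinase Plk3 (3.57-fold), the glycolytic regulator Pfkfb3 (3.56-fold), and Rps25, Rbm15b, Pdzrn3, Arid5b, Gdap10 and Tacc2, between 2.93-fold and 3.38-fold. Of 30 other immediate early effectors and feedback inhibitors measured, 4 had a spike at CT60 (Socs2, Plk3, Phlda1 and Per2), 0 at CT59 and 0 at CT21. Among 14 other bZIP factors (AP-1, ATF and MAF subunits with Crem, Cebpb and Cebpd) Cebpd alone had one, at CT60. Among 14 upstream genes Egfr alone had one, at CT59. None of 15 other immediate early transcription factors had one in these 3 pools, and none of 9 heat shock genes, with 4, 2 and 7 of the 9 above their neighbours at CT21, CT59 and CT60.

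Markers of the cell types a liver pool can hold were set beside these values as summed intensities, on the log2 scale against the same neighbours. Those of 5 hepatocyte markers differed by 0.03 at CT21, 0.00 at CT59 and 0.02 at CT60. Those of 7 neutrophil markers differed by 0.21, 0.06 and 0.02, with 7, 2 and 1 of the 7 above their neighbours. Of these 7, Ngp, Camp, Ltf, Mpo and Elane had means of 48.6 to 61.1, near background, and differed by at most 0.01 at CT21, where S100a8 and S100a9 differed by 0.48 and 0.28. Those of 7 stellate cell markers differed by -0.26, 0.30 and 0.49, with 4, 5 and 3 of the 7 above, those of 8 Kupffer cell markers by 0.11, 0.03 and 0.14, and those of 6 endothelial markers by 0.01, -0.16 and 0.12. Lymphoid, erythroid, bile duct, pancreatic acinar and adipose markers lay between -0.30 and 0.11. Outside these 3 pools, the 4 acinar markers measured were all highest at CT25. There Prss2 was at 112770 against a median of 110.5 over all pools, and Cpa1 at 40170 against 54.6. Egr1 had its second highest value, 6394, in that pool, and the part of acinar tissue in it was not tested. No marker gene had a spike in the 3 pools. The sources used here give no time or order of handling for single mice, and the part of these markers, of handling, of 1 mouse within a pool or of the hour itself in a spike was not tested.

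Members were then compared in pairs after the trend and the harmonics had been removed, over 48 pools and 45 pairs. Pearson r ranged between -0.36 and 0.70 with a median of 0.16, and 12 pairs were called after adjustment over the 45, 11 of them positive. No such count over pairs of other genes is given here. Whether 12 of 45 is more than other genes would show is therefore not known. The closest pair was Myc and Gadd45g (r = 0.70, rho = 0.70, permutation p = 1.00e-05, the smallest it can give, adjusted p = 4.50e-04). It gave r = 0.68 in the second cycle, r = 0.74 in the first and r = 0.70 without the 2 pools farthest from the median. Gadd45g was also related to Dusp1 (r = 0.41, rho = 0.36, permutation p = 0.00419, adjusted p = 0.0236) and to Fos (r = 0.40, rho = 0.32, permutation p = 0.00395, adjusted p = 0.0236). Neither was called with Spearman rho (permutation adjusted p = 0.0549 for Dusp1 and 0.107 for Fos), and they were less even, with r = 0.57 in the second cycle and 0.18 in the first for Dusp1, and r = 0.30 without the 2 farthest pools for Fos.

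Btg2, Junb and Egr1 were also called with one another. Junb and Btg2 gave r = 0.59 and rho = 0.54 (permutation p = 2.00e-05, adjusted p = 4.50e-04), Egr1 and Btg2 r = 0.50 and rho = 0.58 (permutation p = 4.90e-04, adjusted p = 0.00735), and Junb and Egr1 r = 0.47 and rho = 0.50 (permutation p = 7.70e-04, adjusted p = 0.00866). In the second cycle r was 0.44, 0.34 and 0.40 for these 3 pairs, and in the first it was 0.76, 0.71 and 0.57. Without the 2 farthest pools r was 0.46, 0.55 and 0.43. The other 5 pairs called each held Ier2 or Myc, and some held a gene of this group, so that the called pairs did not fall into separate sets. They were Ier2 with Btg2 (r = 0.44, rho = 0.44, permutation adjusted p = 0.0150), Ier2 with Jun (r = 0.41, rho = 0.42, adjusted p = 0.0236), Ier2 with Junb (r = 0.40, rho = 0.36, adjusted p = 0.0240), Ier2 with Myc (r = 0.36, rho = 0.38, adjusted p = 0.0494) and Junb with Myc (r = 0.38, rho = 0.39, adjusted p = 0.0337). With Spearman rho the pair of Ier2 and Junb was not called (permutation adjusted p = 0.0581). Egr1 was not called with Gadd45g (r = -0.10, rho = -0.10, permutation adjusted p = 0.604) or with Myc (r = -0.02, rho = -0.01, adjusted p = 0.966), although all 3 had a spike at CT59. Fos and Jun, which act as a dimer, gave r = 0.12 (rho = 0.01, permutation adjusted p = 0.588). The 1 negative pair called was Atf3 and Gadd45g (r = -0.36, rho = -0.31, permutation p = 0.0116, adjusted p = 0.0473, r = -0.24 without the 2 farthest pools). It was not called with Spearman rho (permutation adjusted p = 0.107), and Atf3 lay near background throughout.

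**Figure D5:**
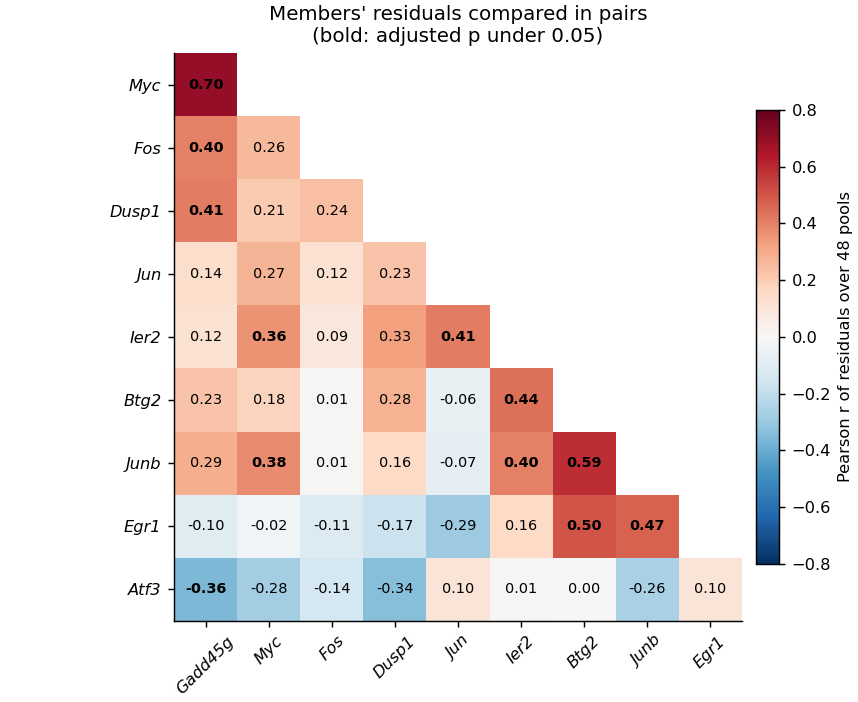
Pearson r between the residuals of each pair of member genes over 48 pools, after a linear trend and the 24, 12 and 8 h pairs were removed, printed in each cell and shown in colour, with bold type for an adjusted p under 0.05. Myc and Gadd45g have the highest value, 0.70, the pairs among Btg2, Junb and Egr1 lie at 0.47 to 0.59, and Ier2 and Junb with Myc (0.36 and 0.38) link these genes.

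The members' common profile, the mean of the standardized log2 values of the 10 genes, was highest at CT21, at 0.95, and lowest at CT65, at -0.95, with CT22 at 0.80, CT23 at 0.69, CT37 at 0.68, CT43 at 0.61 and CT59 at 0.55. Ier2 (r = 0.55) and Myc (r = 0.49) followed the mean of the other members most closely in a description over 48 pools, and Atf3 ran against it (r = -0.34). Among 11177 other genes with a mean intensity of at least 100, the most similar over 48 pools were Prg4 (r = 0.74), Dop1b (0.73), Sec14l4 (0.72), Eif3b (0.69), Cdhr5 (0.68) and Dap, Clptm1, Esyt1, Plod1 and Pfkl (0.67 each). These 10 were chosen for their likeness and are named without a test, and all 10 were dimmer in the second cycle, at 0.619 to 0.876 of their mean in the first. The members' profile was also low at CT61, at -0.84, and at CT62 to CT64, at -0.57 to -0.54. The profile and these likenesses are given over all 48 pools only, and the part of the last pools in them was not tested.

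Other genes of the pathway were taken from lists that were chosen with earlier results of these data known. Of 14 other bZIP factors (AP-1, ATF and MAF subunits with Crem, Cebpb and Cebpd) 12 had a 24 h component in limma, against 52.7% of all genes. Both tests called 7 in the 24 h class, Crem, Cebpb and Cebpd among them, against 14.2% of all genes. That class is the one counted for each list below. Atf5, an amino acid stress factor, had an amplitude of 0.88 ± 0.073 (SE; log2) and a peak at CT2.97 ± 0.32 h, and Cebpd, an acute phase factor, 0.66 ± 0.076 and CT13.7 ± 0.42 h. Crem, a CREB relative, had an amplitude of 0.35 ± 0.038 and Atf2 one of 0.18 ± 0.021. Fosb and Fosl1 lay at 43.5 to 47.1 and 55.7 to 62.1, near background, and were called by limma with amplitudes of 0.01 and 0.02, so that a call in this model can be of no measurable size.

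Of 15 other immediate early transcription factors 9 had a 24 h component in limma and 3 were called by both tests. Klf10, a TGF-beta induced repressor, ranged between 309 at CT45 and 5594 at CT57 and had an amplitude of 1.13 ± 0.11 (SE; log2) with a peak at CT9.96 ± 0.36 h. Klf9 (0.49 ± 0.051), Csrnp1 (0.42 ± 0.072) and Id2 (0.30 ± 0.046) had smaller amplitudes. The Egr1 relatives Egr2 and Egr3 lay between 65.1 and 143 in all pools, and Nr4a1, Nr4a2 and Nr4a3 between 64.8 and 106. Of the effectors and feedback inhibitors 21 of 30 had a 24 h component in limma and 12 were called by both tests. The clock gene Per2, which CREB also induces, had an amplitude of 1.70 ± 0.11 with a peak at CT13.9 ± 0.24 h, the kinase Pim3 0.96 ± 0.068 at CT11.1 ± 0.25 h, the Btg2 relative Btg1 0.60 ± 0.052 at CT23.7 ± 0.30 h and the NF-kappaB inhibitor Nfkbia 0.30 ± 0.037 at CT8.42 ± 0.46 h.

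Upstream, 9 of 14 signal carriers and factors had a 24 h component in limma and 3 were called by both tests, with amplitudes of 0.27 ± 0.035 for the receptor Met, 0.25 ± 0.044 for the SRF partner Elk4, 0.22 ± 0.036 for the kinase Mapk8 and 0.20 ± 0.041 for Rps6ka3 (SE; log2). Srf (amplitude 0.05, limma, adjusted p = 0.307) and Creb1 (0.08, adjusted p = 0.199) were not called. Of 8 MYC partners 6 had a component in limma and 1, Mlx (0.31 ± 0.042), was called by both tests, with Mlxipl at 0.40 ± 0.11, Mxd4 at 0.16 ± 0.041 and Mxi1 at 0.13 ± 0.027.

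Lists of genes that answer other stimuli were set beside these. All 9 heat shock genes had a 24 h component in limma and 5 were called by both tests in the 24 h class, with amplitudes of 1.04 ± 0.065 (Hspb1), 0.84 ± 0.069 (Hsph1), 0.67 ± 0.041 (Hsp90aa1) and 0.26 ± 0.019 (Hspe1), all with peaks between CT17.9 and CT20.0 (SE; log2). Both tests also called Hspa1b and Hspa8, each with a cosine period of 12.1 h, in the 12 h class. Of 10 glucocorticoid targets 9 had a 24 h component in limma and 6 were called by both tests. Fkbp5 (1.17 ± 0.074, CT14.0 ± 0.24 h), Tsc22d3 (1.0 ± 0.071, CT17.2 ± 0.29 h) and Tat (0.34 ± 0.050, CT16.9 ± 0.62 h) peaked within 3 h of Dusp1 (CT16.5 ± 0.65 h), as did Zbtb16 (CT15.0 ± 0.82 h). The others called in limma did not. Mt1 (1.16 ± 0.17) peaked at CT8.58 ± 0.56 h, Mt2 at CT9.15, Pck1 at CT9.52, Per1 at CT11.2 and Sgk1 at CT23.1. Of 10 hypoxia targets 6 had one in limma and 4 were called by both tests, among them Ndrg1 (1.04 ± 0.073), Bnip3 (0.55 ± 0.030), Pdk1 (0.26 ± 0.037) and Vegfa (0.18 ± 0.044). Of 8 acute phase genes 4 had one in limma (Saa3, Orm1, Orm2 and Crp, amplitudes 0.13 to 0.38) and 0 were called by both tests. The number of these genes with a spike was 5 of 10 among the glucocorticoid targets, with 34 spikes, and 4 of 8 among the acute phase genes, with 25, the 5 spikes of Lcn2 being in both lists. It was 4 of 9 among the heat shock genes, with 7 spikes, and 2 of 10 among the hypoxia targets, with 5, against 7 of 10 with 26 among the members and 6.03% of all genes with at least 1.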

How the data were processed

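RNA of 48 hourly pools of mouse liver was measured on Affymetrix Mouse Genome 430 2.0 arrays. The authors deposited linear intensity values per probe set; by the study's methods these were extracted with GCRMA, and the submitters' processing notes also name MAS5. Which of these gave the deposited values was not settled. All 45101 probe sets were used after log2 transformation with no added constant; 34958 had 1 gene symbol, 932 several and 9211 none, and only the first kind was named. Signal over background limits dim probe sets.

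Fisher's exact G-test (23 Fourier frequencies) and a cosine fit after COSOPT (4 to 30 h, every 0.1 h, trend removed, 1000 scramblings) were converted to Storey q-values; a call required q under 0.05 in both, in the classes of 20 to 30 h, 10 to 14 h and 7 to 9 h. Harmonic models and differences between cycles were fitted in limma 3.58.1 (R 4.3.3) on all probe sets with Benjamini-Hochberg adjustment at 0.05. Correlations were tested with 100000 permutations, two-sided. The G-test, the cosine fit, limma and the spike rule were tested on simulated data.

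The text names all members, of each other list the up to 4 genes with the smallest 24 h adjusted p, the 10 highest non-members in each of the 3 pools tied for the most member spikes (mean intensity of at least 100) and the 10 genes most like the members' profile; other list genes were named after their values were seen. Members and lists were chosen with earlier results of these data known. A gene stands for its brightest probe set outside the member results. Marker lists covered hepatocytes, sinusoidal endothelium, Kupffer, stellate, bile duct, lymphoid, neutrophil, erythroid, pancreatic acinar and adipose cells. Alternatives changed the scale, normalization, filter, model and pools; leaving out CT60 to CT65 in the spike count was chosen after seeing the data.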

Additional observations from a re-analysis of the deposited data

How the results depend on the processing

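With 1 pool per hour the spread between mice was not measured, and p-values rest on the spread around the fitted curves. The count of members called by both tests was 3, and 2 to 3 under its alternatives; the count with a 24 h component in limma was 6, and 4 to 9. The count with a 12 h component was 2, against 1 with linear intensities and 7 with a running median of 3 pools, and the 8 h count was 0, against 2 with the running median, in which neighbouring values share pools by construction. The count that differed in mean between cycles was 4, against 1 after quantile normalization and 1 without CT36 to CT41 and CT60 to CT65, and 6 with robust regression, 2 of them higher in the second cycle; the cause was not tested. Spikes were found in 7 probe sets, against 8.54% of all probe sets, and numbered 26. At 1.5-fold 11 had 65, where 31.2% of all probe sets had at least 1. At 3-fold 3 had 9, where 1.42% of all probe sets had at least 1. Recurrence was called in 2, and in 0 without CT60 to CT65 and their paired hours. Pairs of members called numbered 12, and 8 or 9 under the alternatives. Over single members, 130 values kept their call under the other settings, 12 lost it and 8 gained one, and no called value changed sign. With each pool left out in turn 1113 kept it, 31 lost it and 8 gained one.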
